A study of Homo sapiens with 10 samples.

Results

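The comparison set a p53 knockout line of U2OS, a human osteosarcoma cell line, against its control line, both given control siRNA. It used 5 of the 10 RNA sequencing libraries of the study, chosen by their titles: 3 of the line made with a control CRISPR construct and labelled p53 WT, and 2 of the line labelled p53 KO. All 5 cultures received control siRNA for 96 h in DMEM with 10% serum. The other 5 libraries came from the same lines given an siRNA against SET (3 WT-labelled, 2 KO-labelled) and served as a second reading of the line difference that shares no library with the first. The series title names genes regulated through p53 and SET together as the subject. Each line came out of selection and clone identification, so one derived line stands for each genotype. An effect of p53 loss and any other difference between the derived lines cannot be told apart. The series' design text describes a line without p53 but names SET as the target of its CRISPR construct, so groups were taken from the titles and are called WT-labelled and KO-labelled. How the replicate cultures were kept separate is not described. A p-value here reflects only how much libraries vary within groups, pooled over the 4 groups of all 10 libraries.

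Expression was FPKM per gene, the number of fragments per kilobase of gene scaled to the mapped fragments of the library. Between 13804 and 14004 genes reached FPKM 1 in the 5 libraries, and the authors' confidence intervals imply about 14300000 to 17600000 fragments per library. The 2 KO-labelled libraries stood farther apart than any other pair of one group: their median absolute log2 difference was 0.144 over 10485 genes, against 0.0596 to 0.0856 in the other pairs. Differences are given as KO minus WT on the log2(FPKM + 1) scale, which understates changes of low genes. A gene was called at a Benjamini-Hochberg adjusted p below 0.05 in limma. The 1.5-fold and 2-fold limits on calls are on this log2(FPKM + 1) scale, while fold values given for means are ratios of FPKM. Markers of other cell types were checked as lists, to be read beside the 25.7% of all tested genes called higher and 22.2% called lower. Of 10 blood markers 2 passed the filter on low values and both were called lower, with a summed level of 10.4 to 11.6 FPKM in WT-labelled and 4.93 to 5.19 in KO-labelled cells, while CD3E and HBB were at 0 in all 5 libraries. Of 7 skeletal muscle markers 2 passed and both were called higher (4.37 to 4.79 against 5.64 to 6.61), with MYOG at 0. Of 10 neural markers 7 passed, 2 called higher and 2 lower (106 to 117 against 80.5 to 91.9). Of 8 endothelial markers 1 passed and was not called (3.07 to 3.11 against 2.92 to 2.98). The part of these markers in the results was not tested. VIM, a mesenchymal marker, was at 1273, 1248 and 1297 FPKM in WT-labelled and 1465 and 1429.6 in KO-labelled cells. COL1A1, a bone matrix collagen, was at 289, 278 and 234 against 290 and 236. VIM and COL1A1 come from a list of 8 U2OS features, of which 5 passed the filter, 3 called higher and 1 lower. Its members CDKN2A and TERT, low or silent in U2OS, were below the filter. So was the osteoblast factor SP7, at 0 to 0.023 FPKM in the 5 libraries.

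p53 is a transcription factor that is kept low in unstressed cells by the ubiquitin ligase MDM2, itself a p53 target. When stabilised it binds response elements made of a pair of decamers and raises genes of cell cycle arrest, apoptosis, DNA repair and metabolism. Many cell cycle genes are held down indirectly: the p21 protein made from CDKN1A keeps the DREAM repressor complex on promoters that hold a cell cycle homology region, TTTGAA, or E2F sites. SET is a histone chaperone that binds the p53 C-terminus and acts as a repressor of p53 target genes.

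RefSeq promoters (GRCh38.p14, 250 bases before to 50 after the start) were searched for both kinds of motif, and examples are shown because the results turn on these 2 gene groups. For the p53 element, the searched pattern of 20 bases was a pair of decamers without a spacer, each with its core C and G, and up to 2 other mismatches. It was found in 74 of 27305 promoters (0.271%). Of the 135 tested p53 targets 106 had a promoter in the table, which is under 80%, so no share is given for them. The elements before the start, with 5 bases on each side and the element in capitals, were at chr15:88621301-88621330 on the plus strand for AEN, chr12:2004645-2004674 on the minus strand for DCP1B and chr3:49358516-49358545 on the minus strand for GPX1.
AEN: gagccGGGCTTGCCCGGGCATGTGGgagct
DCP1B: gcagaGGGCAGGCCTGGGCTTGTCGttgcc
GPX1: tgcctGGGCCAGACCAGACATGCCTgctgc
All 3 genes were called lower in KO-labelled cells, as were 102 of all 135 tested p53 targets. DCP1B lies in a stretch at the start of chromosome 12 whose genes were mostly lower. Another target, GLS2, a glutaminase, held an element after the start and was not called (-0.21). These windows do not cover elements in introns or farther upstream, where many known p53 elements lie.

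TTTGAA, on either strand, was in 15.4% of all promoters and CCAAT in 35.7%. Of 34 G2/M genes with a promoter in the table, 23 (67.6%) held TTTGAA, 26 (76.5%) held CCAAT and 19 held both. Of 36 G1/S genes, 1 (2.78%) held TTTGAA and 21 (58.3%) held CCAAT. The windows around TTTGAA, which stands in capitals, were at chr15:59105105-59105134 for CCNB2, chr2:26786026-26786055 for CENPA, chr10:128126435-128126464 for MKI67, chr1:43358904-43358933 for CDC20 and chr16:23678848-23678877 for PLK1, on the minus strand for MKI67 and the plus strand for the other 4.
CCNB2: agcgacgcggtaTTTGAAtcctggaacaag
CENPA: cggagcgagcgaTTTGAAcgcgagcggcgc
MKI67: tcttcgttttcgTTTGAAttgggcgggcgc
CDC20: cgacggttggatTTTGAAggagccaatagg
PLK1: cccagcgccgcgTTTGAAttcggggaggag
CCNB2, CENPA and MKI67 were called higher with control siRNA, and CDC20 and PLK1 were not called. Of all 40 tested G2/M genes 34 were called higher. A match describes the letters only.

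SET, on chromosome 9, was at 121, 125 and 126 in WT-labelled and 158 and 170 in KO-labelled cells, 0.40 ± 0.05 higher (SE, limma adjusted p = 0.00031). The groups did not overlap, as for 99.6% of all called genes.

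Of 14813 tested genes, 3810 (25.7%) were called higher and 3291 (22.2%) lower in KO-labelled cells, 47.9% either way. Without the second KO-labelled library 2479 were higher. Most calls were small: 79.3% were under 1.5-fold, and the median size of a called difference was 0.37 log2. At least 2-fold, 94 genes (0.635%) were higher and 279 (1.88%) lower. The plot of difference against level places most p53 targets below 0 and most G2/M genes above it.

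**Figure D1:**
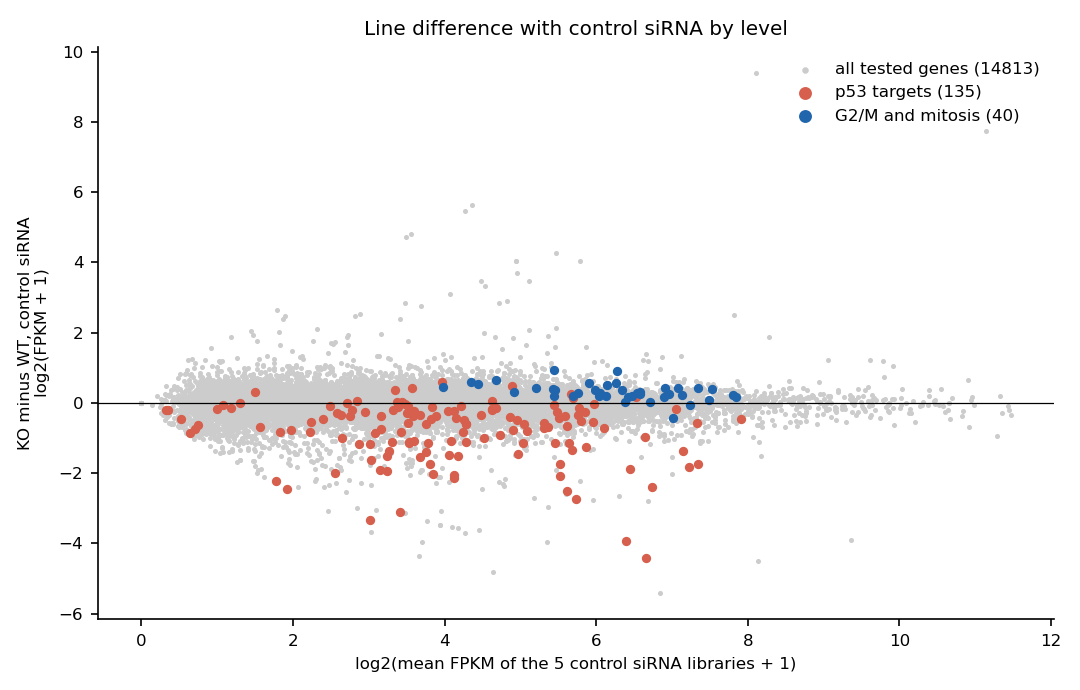
KO minus WT difference with control siRNA on the log2(FPKM + 1) scale (vertical) against the log2 of the mean FPKM of the 5 libraries plus 1 (horizontal) for 14813 tested genes. Red points are 135 p53 targets, of which 102 were called lower, and blue points are 40 G2/M genes, of which 34 were called higher.

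The p53 targets were mostly lower. Of 148 listed targets, sorted by role into 5 lists, 135 passed the filter, 102 were called lower and 6 higher, and the median difference was -0.60 where that of all tested genes was 0.02. For all 102 the KO-labelled libraries lay below all WT-labelled ones, as groups did not overlap for 99.6% of all called genes. At least 2-fold, 45 targets were lower, which is 16.1% of the 279 such genes, while targets made up 0.91% of tested genes. In bulk RNA, fewer cells expressing a gene and less RNA per cell cannot be told apart. The lists were assembled from known targets with earlier results of these data in view.

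**Figure D2:**
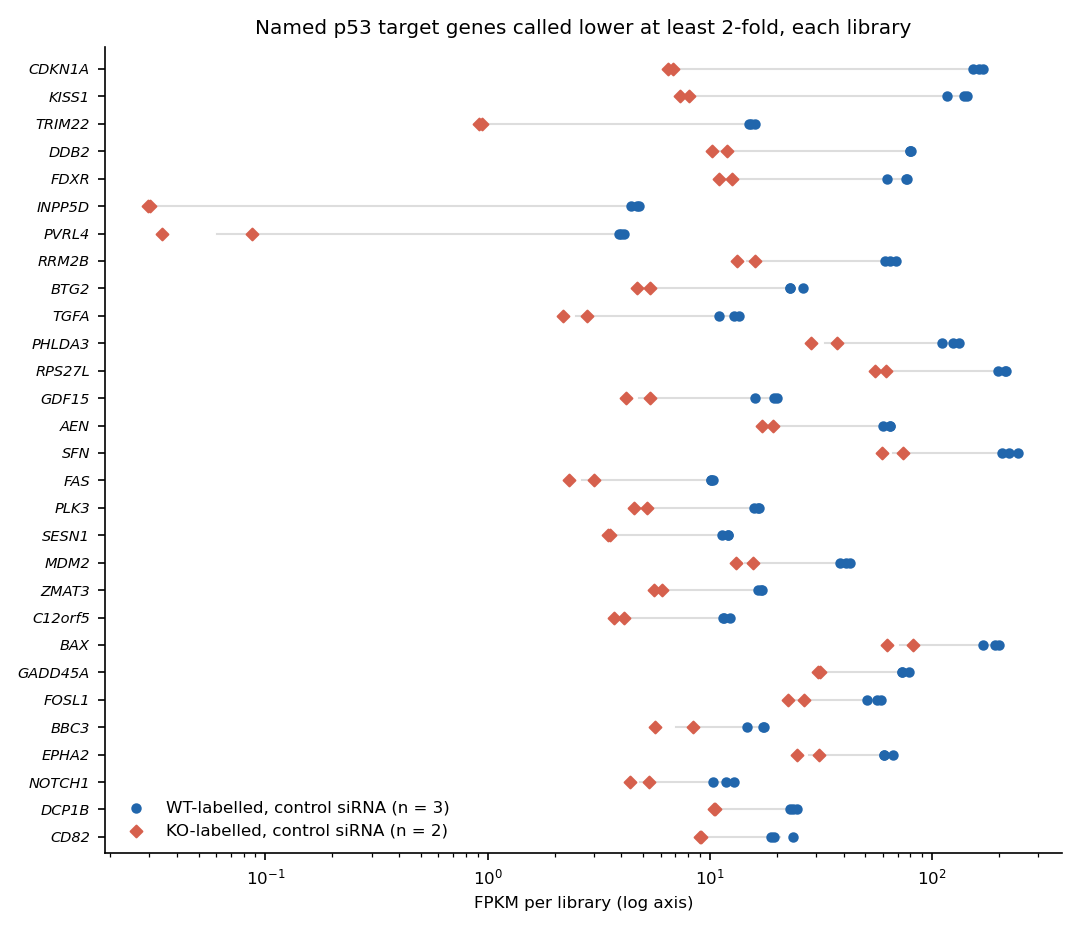
FPKM per library on a log axis for the 29 named p53 targets called lower at least 2-fold, with 3 WT-labelled libraries as blue circles and 2 KO-labelled libraries as red diamonds, ordered by the log2 difference. Every red point lies to the left of every blue point of its gene, with CDKN1A at 153 to 170 against 6.51 to 6.84 FPKM.

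Targets of arrest and feedback were called lower in 21 of 27 tested genes, 13 of them at least 2-fold, and higher in 1. CDKN1A (chromosome 6, 36644237 to 36655116), the p21 inhibitor of cyclin-dependent kinases, was at 163, 170 and 153 FPKM in WT-labelled and 6.84 and 6.51 in KO-labelled cells. The mean was 24.3-fold lower (-4.41 ± 0.05, limma adjusted p = 1.7e-10). MDM2, the ubiquitin ligase of the feedback loop, was at 38.7, 42.9 and 41 against 13.1 and 15.7 (-1.45 ± 0.08, limma adjusted p = 2.7e-06). Its mean was 2.84-fold lower. BTG2, an antiproliferative cofactor of mRNA deadenylation, went from 22.9, 26.4 and 23 to 4.71 and 5.4. GDF15, a secreted stress factor, went from 20, 19.4 and 16 to 4.21 and 5.37. SFN, the 14-3-3 sigma protein of the G2 checkpoint, went from 245, 221 and 206 to 74.3 and 59.4. None of these ranges overlapped, as for 99.6% of all called genes. TRIM22 (-3.09), PHLDA3, an inhibitor of AKT (-1.87), the kinase PLK3 (-1.55), the sestrin SESN1 (-1.50), the RNA-binding ZMAT3 (-1.39) and GADD45A (-1.25) were lower as well. The exception, CCNG2, a cyclin also driven by FOXO factors, was higher, at 11.9, 12.1 and 11.7 against 16.9 and 20.5 (0.60). CCNG1 was at 132, 143 and 138 against 110 and 136 and was not called, although it was without the second KO-labelled library (-0.32).

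Apoptosis and death receptor targets were called lower in 12 of 19, 6 of them at least 2-fold, and higher in none. BAX, the pore-forming protein of the mitochondrial pathway, was at 200, 192 and 169 in WT-labelled and 81.7 and 62.4 in KO-labelled cells (-1.37 ± 0.11). BBC3, the BH3-only protein PUMA, was at 17.6, 17.4 and 14.8 against 8.39 and 5.66 (-1.15 ± 0.14, limma adjusted p = 0.00019), with the 2 KO-labelled libraries well apart. FAS, a death receptor, was at 10.1, 10.3 and 10.1 against 2.32 and 3 (-1.62). FAS lies among neighbours on chromosome 10 that were mostly higher. The nuclease AEN was at 64.7, 60.3 and 64.5 against 19.2 and 17.2 (-1.74), and RPS27L at 198, 214 and 216 against 55.2 and 62 (-1.82). Other members differed little: PMAIP1, the BH3-only protein NOXA, was at 53.5, 55.9 and 57.7 against 45.9 and 55.2 and was called only when the second KO-labelled library was left out (-0.27). TP53I3 was lower (-0.36).

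Repair and nucleotide supply targets were lower in 7 of 10 and higher in 2. DDB2, a damage sensor of nucleotide excision repair, was at 79.2, 80.2 and 79.9 against 11.9 and 10.3 (-2.74 ± 0.06). RRM2B, the p53-inducible ribonucleotide reductase subunit, was at 61.5, 68.7 and 64.7 against 13.2 and 16 (-2.08). XPC, another damage sensor, was at 31.4, 31.4 and 31.8 against 16.6 and 16.1. The means of these 3 genes were 7.19-fold, 4.44-fold and 1.93-fold lower. PCNA (-0.46), the replication clamp, and POLH (-0.38), a polymerase that copies damaged DNA, were modestly lower.

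Metabolic targets were lower in 15 of 23 and higher in 2. FDXR, the ferredoxin reductase of mitochondrial steroid and iron-sulphur synthesis, was at 77.4, 76.7 and 62.7 against 12.5 and 11 (-2.52). C12orf5, which encodes the fructose bisphosphatase TIGAR, was at 11.5, 12.4 and 11.4 against 3.7 and 4.12 (-1.38), inside a stretch of chromosome 12 whose genes were mostly lower. GPX1, a glutathione peroxidase whose promoter element is printed above, was lower (-0.56). The phosphatidate phosphatase LPIN1 was 0.47 higher.

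Signalling and surface targets were lower in 47 of 56 and higher in 1. KISS1, the metastin precursor, was at 143, 139 and 117 against 7.34 and 8.03 (-3.94 ± 0.10). INPP5D, the SHIP1 phosphatase usually found in blood cells, was at 4.7, 4.82 and 4.42 against 0.0296 and 0.0301 in the more abundant of its 2 entries. PVRL4, nectin-4, was at 3.9, 3.96 and 4.09 against 0.0343 and 0.0871. Both genes were close to 0 in both KO-labelled libraries. TGFA, a ligand of the EGF receptor, was at 12.8, 11 and 13.5 against 2.8 and 2.18 (-1.94). The receptor kinase EPHA2 (-1.15), the AP-1 subunit FOSL1 (-1.15), NOTCH1 (-1.11), the tetraspanin CD82 (-1.09) and the cytokine LIF (-0.99) were lower too. Outside the chromosome stretches described at the end, 96 of 129 tested targets were lower.

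Of the p53 family and its regulators 16 of 33 tested genes were higher and 5 lower, none of them at least 2-fold. With library weights 9 were called higher. The deacetylase SIRT1 was at 11.9, 12.5 and 12 against 17.4 and 20.1 (0.59). The checkpoint kinase CHEK2 was at 19.5, 21.3 and 19.9 against 27.2 and 29.8 (0.47). CHEK1 (0.32) was higher by less. The family member TP63 and CDKN2A, which encodes the MDM2 inhibitor ARF, were below the filter. The p53-binding inhibitor iASPP, from PPP1R13L, was lower (-0.53).

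Mitotic genes were mostly called higher, by small amounts. Of 40 tested G2/M genes 34 were higher and 1 lower, with a median difference of 0.30, and none reached 2-fold. The kinase TTK of the spindle checkpoint was at 19, 20.4 and 20.3 in WT-labelled and 28.8 and 34.8 in KO-labelled cells (0.64 ± 0.08). CENPA, the centromeric histone, was at 65, 69 and 57.8 against 92.6 and 95.8 (0.56). CDK1, the mitotic kinase, was at 112, 127 and 114 against 141 and 175 (0.42 ± 0.09), and its cyclin CCNB1 at 198, 214 and 210 against 238 and 250 (0.23). The ranges of these 4 genes did not overlap, as for 99.6% of all called genes. The proliferation marker MKI67 was 0.21 higher. AURKB, the chromosomal passenger kinase on chromosome 17, was at 58.4, 55.2 and 55.1 against 109 and 105 (0.92), and KIF11, a spindle motor on chromosome 10, was 0.93 higher. Both lie in stretches whose genes were mostly higher. FOXM1, the transcription factor of the G2/M programme, was the 1 lower member, at 142, 143 and 145 against 109 and 104 (-0.42), in the lower stretch of chromosome 12. CDC20 was at 158, 148 and 151 against 155 and 139, and PLK1 at 84.4, 80.8 and 79.9 against 89.3 and 76.9. CDC20 was called lower when the first KO-labelled library was left out (-0.13). Outside such stretches 32 of 36 G2/M genes were higher and none lower.

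Genes of G1/S and DNA replication were mixed: of 42 tested, 17 were higher and 8 lower, with a median of 0.09. Without the second KO-labelled library 9 were called higher. The activator E2F2 was at 12.7, 13.1 and 11.9 against 17 and 16.1 (0.37), and the cyclin CCNE2 was 0.30 higher. MCM7, a helicase subunit on the lower stretch of chromosome 7, was at 212, 211 and 200 against 139 and 126 (-0.65). UHRF1, which guides maintenance methylation, was at 26.2, 24.6 and 24.3 against 21 and 18.1 (-0.34), and the methyltransferase DNMT1 was lower (-0.20). MCM2 was at 75.8, 72.1 and 74.1 against 82.4 and 70.6 and was not called. Outside the chromosome stretches described at the end, 16 of 35 tested G1/S genes were higher and 3 lower.

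**Figure D3:**
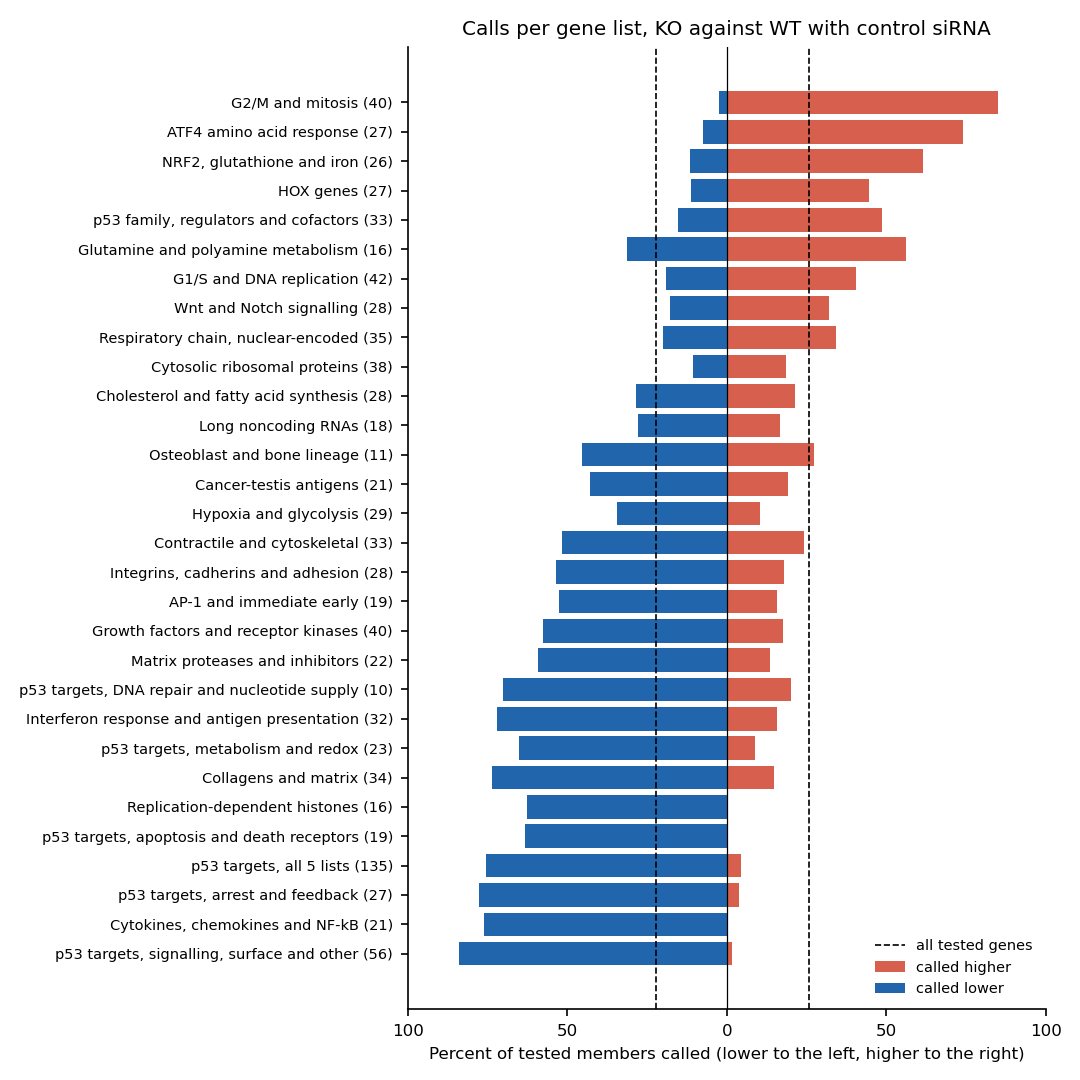
Percent of the tested members of each gene list (tested number in brackets) called higher, to the right, or lower, to the left, in KO-labelled against WT-labelled cells with control siRNA. Dashed lines mark all tested genes, 25.7% higher and 22.2% lower. The p53 target lists are interleaved with cytokine, matrix and interferon lists at the lower end, and G2/M has the largest share called higher of the lists shown.

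Antigen presentation and interferon genes were lower in 23 of 32 tested and higher in 5. The class I heavy chain HLA-B was at 194, 191 and 184 against 107 and 97.9 (-0.88), and HLA-C was lower (-0.83). Class I genes are near-identical in parts, and how the counting split reads among them is not given in the sources used here. B2M, the invariant light chain, was at 625, 670 and 652 against 428 and 496 (-0.49). The peptide transporter TAP1 was at 22.9, 23.3 and 21.7 against 10.1 and 9.19 (-1.15). The interferon-induced genes IFI44 (4.94, 6.18 and 5.71 against 1.08 and 1.02) and OAS3 (-1.12) were lower, while GBP2 was higher at 1.51, 1.23 and 1.46 against 3.84 and 3.71. IFIT1 was 1.09 higher, in a stretch of chromosome 10 that was mostly higher.

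Cytokine and NF-kB genes were lower in 16 of 21 and higher in none. IL32 was at 57.3, 60.3 and 55.9 against 21.5 and 17.3 (-1.53). The apoptosis inhibitor BIRC3 was at 9.58, 10.2 and 11.4 against 2.67 and 3.06 (-1.56), and the chemokine CCL2 at 15.3, 15.2 and 17.1 against 7.07 and 6.22 (-1.14). CSF2, the growth factor GM-CSF, was at 2.57, 3.37 and 3.44 against 0.199 and 0. The NF-kB inhibitor NFKBIA (-0.45) and the subunit RELB (-0.67) were lower by less. Every one of these 6 genes had its KO-labelled libraries below its WT-labelled ones, as groups were apart for 99.6% of all called genes.

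Matrix and adhesion genes were more often called lower than higher. Collagens and matrix were lower in 25 of 34 and higher in 5, proteases and inhibitors lower in 13 of 22 and higher in 3, and adhesion molecules lower in 15 of 28 and higher in 5. Among laminin chains LAMA3 was lower (-1.34) and LAMB3 was at 114, 107 and 104 against 53.7 and 46.8 (-1.10). ITGA2, a collagen-binding integrin subunit, was at 23.3, 22.8 and 24 against 3.69 and 4.59 (-2.25), and ITGA6, a laminin receptor subunit, was lower (-1.09). CD44, the hyaluronan receptor, was at 61.8, 56.5 and 66.7 against 27 and 26.9 (-1.16). Among proteases MMP9 was at 22.6, 20.7 and 19.5 against 5.82 and 4.39 (-1.85), and the urokinase gene PLAU was lower (-1.12) and its receptor PLAUR likewise (-0.85). Others rose: the fibrillar collagen COL3A1 was at 3.4, 4.03 and 2.05 against 16.3 and 13.7 (1.97 ± 0.21), the laminin chain LAMA4 at 1.67, 2.04 and 1.32 against 5.93 and 5.3 (1.31), and the neural adhesion molecule NCAM1 was 0.50 higher. Epithelial markers were lower in 4 of 5 tested of 10, where 22.2% of all tested genes were lower. Their summed level was 25.5 to 26.9 FPKM against 12.4 to 12.9. The largest was the keratin KRT15, at 6.96, 6.41 and 7.2 against 0.486 and 0.493 (-2.40). The part of these marker levels in the matrix and adhesion differences was not tested.

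Among bone lineage genes 5 of 11 were lower and 3 higher, where 22.2% of all tested genes were lower and 25.7% higher. SPP1, the matrix protein osteopontin, was at 78.6, 75.5 and 85.3 against 15.8 and 16.7 (-2.23). RUNX2, the osteoblast transcription factor, was at 6.71, 7.5 and 8.11 against 13.2 and 12.6 (0.72).

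Growth factors and receptor kinases were lower in 23 of 40 and higher in 7. The PDGF system was split: the ligand PDGFB was at 7.75, 5.62 and 5.2 against 0.65 and 0.504 (-2.17), PDGFC at 22.7, 24.6 and 26.1 against 4.28 and 5.02 (-2.17), and the receptor PDGFRA at 1.95, 2.28 and 1.84 against 8.63 and 9.65 (1.75 ± 0.08). Ligands of the EGF receptor family were lower for NRG1 (-1.62) and AREG (-1.25), as TGFA was. Immediate early genes were lower in 10 of 19 and higher in 3: CTGF, a YAP and TGF-beta target, was at 159, 152 and 156 against 75.2 and 71.9 (-1.07), while MYC was at 48.9, 45.7 and 50.5 against 63.7 and 61.7 (0.37). Wnt and Notch genes were called higher in 9 of 28 and lower in 5, not far from the 25.7% and 22.2% of all tested genes. The Notch ligand JAG1 was lower (-1.09), and the Wnt enhancer RSPO3 was at 0.164, 0.528 and 0.325 against 2.02 and 2.11 (1.20).

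Amino acid and redox genes were more often called higher than lower. Of 27 tested genes of the ATF4 response, which cells raise when amino acids run short, 20 were higher and 2 lower, with a median of 0.37. CTH, which makes cysteine from cystathionine, was at 5.12, 5.08 and 4.92 against 12.7 and 14.8 (1.28 ± 0.06). TRIB3 was at 22.1, 20.8 and 20.3 against 42.3 and 39.3 (0.92), the stress transcription factor DDIT3 was 0.77 higher, and the cystine transporter SLC7A11 was at 18.4, 19.9 and 18.6 against 28.9 and 34.3 (0.70). ATF4 mRNA itself was 0.17 higher. The lower 2 members, AARS (-0.54) among them, lay in the lower stretch of chromosome 16. GLUL, glutamine synthetase, was at 0.264, 0.396 and 0.273 against 6.44 and 6.27 (2.49 ± 0.07), and 9 of 16 glutamine and polyamine genes were higher and 5 lower. Of the NRF2, glutathione and iron genes, 16 of 26 were higher and 3 lower. The aldo-keto reductase AKR1C3 was at 23.5, 23.2 and 23.5 against 69.1 and 59.8 (1.42). GCLC, the catalytic subunit of glutathione synthesis, was at 24.4, 25 and 25.7 against 41 and 45 (0.76), and the ferritin light chain FTL at 1555, 1507 and 1611 against 2614 and 2308 (0.66). NQO1 (-0.48) and the metallothionein MT2A (-0.53), both on the lower stretch of chromosome 16, were lower. AKR1C1, AKR1C2 and AKR1C3 are close copies, and reads may be split among them.

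The other lists were as follows, to be read beside the 25.7% of all tested genes called higher and 22.2% called lower. Cytosolic ribosomal proteins were higher in 7 and lower in 4 of 38, and respiratory chain genes higher in 12 and lower in 7 of 35. Without the third WT-labelled library 11 ribosomal genes were higher, and without the second WT-labelled or the second KO-labelled one 7 respiratory genes were. Cholesterol and fatty acid synthesis was higher in 6 and lower in 8 of 28, with FASN at 115, 105 and 95.7 against 66.8 and 52.6 (-0.81) and SCD 0.37 higher. Hypoxia and glycolysis genes were lower in 10 and higher in 3 of 29, with 5 lower without the first WT-labelled and 4 without the second KO-labelled library. Contractile and cytoskeletal genes were lower in 17 and higher in 8 of 33: the keratin KRT8 was at 403, 395 and 367 against 149 and 125 (-1.50), its partner KRT18 was lower (-0.82), and calponin CNN1 was at 18.9, 20.4 and 20.1 against 43 and 36.8 (0.97). HOX genes were higher in 12 and lower in 3 of 27, with 6 higher without the first and 7 without the second KO-labelled library, and 4 with library weights. Replication-dependent histones were lower in 10 of 16 (6 without the second KO-labelled library) and higher in none, with HIST1H2AC at 49.4, 42.9 and 36.3 against 19.2 and 15.9 (-1.24). Such mRNAs mostly lack a poly(A) tail, and their FPKM depends on the library preparation. Cancer-testis antigens moved in both directions, 9 lower and 4 higher of 21, and long noncoding RNAs were lower in 5 and higher in 3 of 18, NEAT1 at 227, 243 and 228 against 129 and 134 (-0.82).

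The largest rises and falls, among genes whose groups did not overlap, went beyond the p53 targets. CDKN1A, KISS1 and TRIM22, of the target lists, were among the 12 largest falls. UCA1, a long noncoding RNA, was at 62.8, 57.3 and 73.1 against 3.44 and 2.92 (-3.96), and the cancer-testis antigen CTAG2 at 36.4, 31.7 and 32.8 against 1.97 and 1.72 (-3.61). KYNU, the kynureninase of tryptophan breakdown, was at 9.72, 9.6 and 10.7 against 0.316 and 0.476 (-2.98). MYH16 was at 19.2, 18.6 and 21.5 against 0.22 and 0.446, on the lower stretch of chromosome 7, and LOC643401 was lower (-3.08). The uncharacterised LOC100507165 (11.9, 10.4 and 13.3) and LOC100505817 (6.12, 7.93 and 8.47) were listed at 0 in both KO-labelled libraries. LOC100652895 lies within VPS4B, and its KO-labelled libraries disagreed, at 1.48 and 1.98e-06. Among the 12 rises, LOC643714 on chromosome 16 was listed at 0 in all 3 WT-labelled libraries and at 26.1 and 25.2 in KO-labelled ones. The metallothionein MT1G was at 0, 0.35 and 0 against 6.22 and 5.68. FGF21, a hormone of fasting and amino acid stress, was at 1.41, 1.04 and 1.04 against 8.33 and 8.12 (2.10), and the amino acid transporter SLC7A10 at 2.46, 2.24 and 1.66 against 12.2 and 9.68 (1.94). BCR was at 0.195, 0.211 and 0.191 against 4.18 and 3.83 (2.06), and TUSC5 at 0.0561, 0.0752 and 0.185 against 3.25 and 2.79. CD248, the stromal marker endosialin, was at 0.297, 0.244 and 0.386 against 4.19 and 3.74 (1.92), and the cancer-testis gene CT45A1 at 2.1, 2.18 and 2.2 against 9.83 and 11.4 (1.87). CDRT4 and LOC100652751 (6.72, 11.2 and 10.3 against 32.1 and 49.7) overlap other genes, the latter SCD, and GLUL and COL3A1 complete the 12. CDRT4 lies in a stretch of chromosome 17 whose genes were mostly higher.

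Differences also followed gene order along chromosomes. In windows of 30 neighbouring genes with a mean FPKM of at least 5, the median difference passed 0.3 in size in 29 of 336 windows, 14 higher and 15 lower, and these held 10.1% of all calls and 5.87% of tested genes. Genes past the last full window of a chromosome, or with a lower mean, were in no window. Such genes count as outside the stretches even where they lie beside one. Among them were 3 adjacent windows of chromosome 17 (7476024 to 21218552) with medians of 0.76, 0.76 and 0.59. Their 90 genes included 70 called higher and 3 lower. In the stretch were EFNB3 (9.55, 10.3 and 9.11 against 26.3 and 24.5), KDM6B (1.00) and CHD3 (44, 43.8 and 42.8 against 105 and 96.9). TRIM16 was at 30.7, 31.1 and 32.1 against 99.9 and 93.3 (1.59), the largest difference of these 4. They were chosen after their values were seen. Lower stretches covered 4 windows of chromosome 16 (54952775 to 75019017, medians -0.41 to -0.66), 2 at the start of chromosome 12 (-0.52 and -0.60), 3 adjacent ones of chromosome 7 (-0.34 to -0.51) and 3 near the end of chromosome 17 (73106082 to 79876058, medians -0.33 to -0.53). In these last 3, 77 of 90 genes were called lower and 0 higher. The other 3 lower windows lay on chromosomes 7 and 16 (-0.34 to -0.44). On chromosome 10, 6 windows were higher (0.34 to 0.58), and the other 5 higher windows lay on chromosomes 4, 8, 14 and 16 (0.32 to 0.40). Expression does not measure DNA copy number, and whether copy number differed between the lines was not tested.

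**Figure D4:**
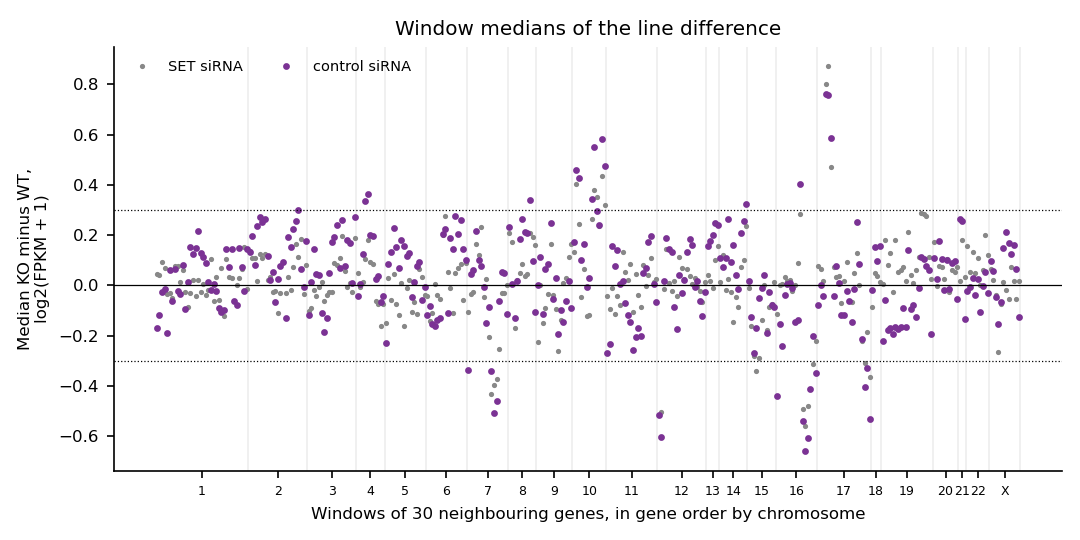
Median KO minus WT difference (log2(FPKM + 1)) in each of 336 windows of 30 genes, in gene order by chromosome, for control siRNA (purple) and SET siRNA (grey), with dotted lines at 0.3 and -0.3. The 29 windows past these lines with control siRNA had the same sign with SET siRNA, though not all of them passed the lines there.

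The SET siRNA libraries of the same lines read these differences again in separate libraries. In them 3501 genes (23.6%) were called higher and 3672 (24.8%) lower. Of the 373 genes called at least 2-fold with control siRNA, 337 were called the same way with SET siRNA and 2 the opposite way. Over all control siRNA calls of any size, 53.9% of the higher and 64.2% of the lower were called the same way with SET siRNA. In all, 251 genes were called in opposite directions. All 29 windows had the same sign of median. The p53 targets were lower in 116 of 135, and 100 of the 102 lower with control siRNA were lower here as well. Their differences were larger, with a median of -1.25. The difference between the 2 line differences was called for 2831 genes (19.1%) and for 84 targets in the direction of a larger fall with SET siRNA, against 5 in the other. Over all genes, leaving out single libraries of either siRNA moved that count between 1136 and 4587, and it was furthest from 2831 without the first SET siRNA or the first control siRNA library of KO-labelled cells. MDM2 showed it plainly: with SET siRNA it was at 213, 212 and 188 in WT-labelled and 16.4 and 16.8 in KO-labelled cells, a difference 2.10 log2 larger (limma adjusted p = 4.9e-05). The KO-labelled level of MDM2 was thus near that with control siRNA, while the WT-labelled level was several-fold higher. CCNG1 and TP53I3, little changed with control siRNA, were lower with SET siRNA (-1.10 and -1.98). AEN (-1.67) and KISS1 (-4.01) were lower by about the same amount under both, and their differences between siRNAs were not called.

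G2/M genes were called higher in 40 of 40 and G1/S genes in 40 of 42 with SET siRNA, with medians of 0.73 and 0.69. The difference between the siRNAs was called for 28 and 36 of them, always toward a more positive KO minus WT difference with SET siRNA. CDC20, not called with control siRNA, was at 73.3, 71.6 and 70.5 in WT-labelled and 144 and 142 in KO-labelled cells with SET siRNA, and PLK1 was 1.03 higher. UHRF1 reversed, from -0.34 to 0.81 (limma adjusted p = 0.00027 for the difference). ATF4 response genes went the other way, higher in 12 and lower in 4 of 27 with SET siRNA, and 12 of 13 called differences between the siRNAs were more positive with control siRNA. ASNS, asparagine synthetase, was at 68.4, 72.9 and 74.9 against 97.3 and 106 with control siRNA, and at 203, 209 and 203 against 166 and 173 with SET siRNA.

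**Figure D5:**
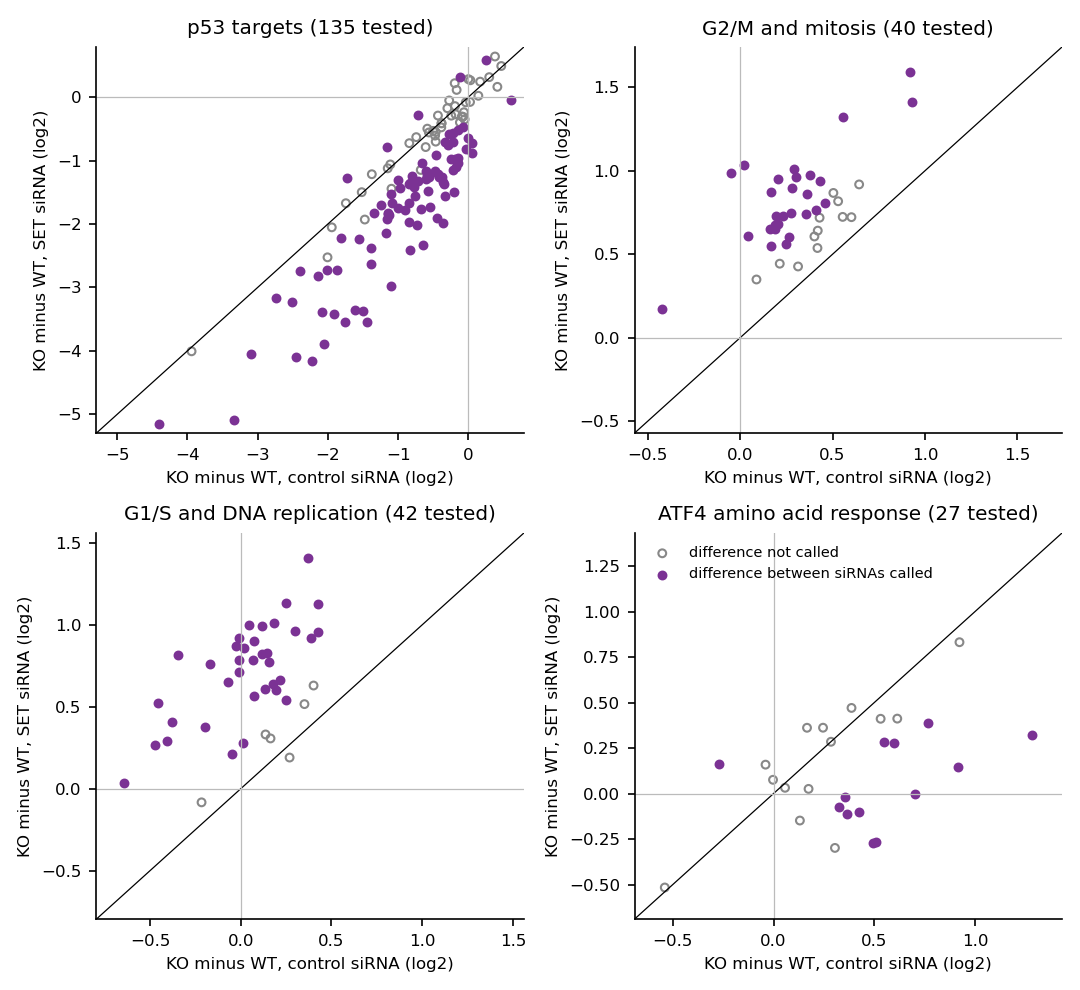
KO minus WT difference with SET siRNA (vertical) against that with control siRNA (horizontal), log2(FPKM + 1), for tested genes of 4 lists, with the line of equal values. Filled points are genes whose difference between the siRNAs was called: 89 of 135 p53 targets, 28 of 40 G2/M, 36 of 42 G1/S and 13 of 27 ATF4 response genes.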

How the data were processed

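RNA sequencing was measured in 10 libraries, 5 of them in the principal comparison. Per the labels' protocols, TruSeq libraries were prepared from Trizol RNA, and bcl2fastq 1.8.4, TopHat2 2.0.4 and Cufflinks 2.0.2 were used per the submitters' processing notes. The authors deposited FPKM per gene, 25593 entries per file. No source used here names the build or gene models, and 0.29% of 19001 gene ends equal those of GRCh38. Coordinates of genes are those of the files counted from 1, while promoter coordinates are GRCh38.p14.

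A gene entered the test when 2 or more libraries reached FPKM 1 (14813 did, 10780 did not), on log2(FPKM + 1). limma 3.58.1 in R 4.3.3 (lmFit, contrasts.fit, eBayes with trend) fitted all 10 libraries as 4 groups with 6 residual degrees of freedom, and adjusted p-values (Benjamini-Hochberg, two-sided) below 0.05 were called. On simulated data with 200 of 14813 genes changed, the procedure recovered 86% of 1.5-fold and 98% of 2-fold changes, with 3.2% of calls false. Changes were set on the log2(FPKM + 1) scale, and every simulated group had the same spread. In the data the KO-labelled control siRNA pair stood farther apart and 47.9% of genes were called. These rates therefore cannot be carried over to the comparison itself. Depth is known only as an estimate from the authors' intervals.

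The members and gene lists were chosen with earlier results of these data known. Named genes were CDKN1A, MDM2, BBC3 and SET, 12 rises and 12 falls of greatest size among called genes without overlap (small RNAs and repeat entries left out), list members with the largest changes or with their values, and examples of regional stretches, and some results these rules name are not reported here. Alternatives covered the pseudocount, the filter, scaling, libraries fitted, a replicate block, the variance trend, library weights, file status, a 2-fold minimum, regional windows and each library left out. Python 3.11.15 with numpy 2.4.6, pandas 2.3.3 and matplotlib 3.10.9 did the rest.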

Additional observations from a re-analysis of the deposited data

Results flagged for a closer look

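For 76 of the 142 named genes the line difference with control siRNA and that with SET siRNA differed by a test of the difference itself (limma, largest adjusted p 0.049). Values are the control siRNA difference minus the SET siRNA difference on the log2(FPKM + 1) scale. A positive value means that KO minus WT was lower with SET siRNA than with control siRNA, and 44 were positive and 32 negative. The tests share the same libraries, and leaving out single libraries moved the count of such genes over all tested ones widely, as given for the processing.

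Among the p53 targets of arrest and feedback the value was 2.1 for MDM2, 1.86 for SESN1, 1.83 for BTG2, 1.79 for GDF15, 0.99 for ZMAT3, 0.96 for TRIM22, 0.93 for CCNG1, 0.86 for PHLDA3, 0.74 for CDKN1A, 0.68 for PLK3, 0.65 for CCNG2 and 0.46 for GADD45A. SFN, at -0.45, went the other way. In the apoptosis list FAS was at 1.74, TP53I3 at 1.63, BBC3 at 0.7, RPS27L at 0.4 and PMAIP1 at 0.37. In repair and metabolism RRM2B was at 1.3, C12orf5 at 1.25, POLH at 0.88, XPC at 0.87, FDXR at 0.72 and DDB2 at 0.42. Among signalling and surface targets PVRL4 was at 1.93, INPP5D at 1.65, DCP1B at 0.43, LIF at 0.31 and FOSL1 at -0.37. Of these 27 targets with positive values, 26 had all WT-labelled SET siRNA libraries above all WT-labelled control siRNA ones. In KO-labelled cells 8 had the SET siRNA libraries above the control siRNA ones and 11 below.

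The cell cycle genes named here had negative values. CDC20 was at -1.04, PLK1 at -1.01, CENPA at -0.77, MKI67 at -0.75, AURKB at -0.67, FOXM1 at -0.59, CCNB1 and KIF11 at -0.49 and CCNB2 at -0.34. UHRF1 was at -1.16, E2F2 at -1.04, MCM2 at -0.96, MCM7 at -0.68, CCNE2 at -0.66, DNMT1 at -0.58. All 9 of the mitotic and all 6 of the replication genes named here had every WT-labelled SET siRNA library below every WT-labelled control siRNA one. In KO-labelled cells SET siRNA libraries lay above the control siRNA ones for 2 of the 9 and 5 of the 6. The checkpoint kinase CHEK1 was at -0.31.

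In the immune lists TAP1 and CSF2 were at 0.82, CCL2 at -0.57, IFIT1 at -0.49, IL32 at -0.46 and OAS3 at -0.38. Among matrix, growth factor and immediate early genes COL3A1 was at 1.0, LAMA4 at 0.94, PDGFC at -1.01, MMP9 at -0.58 and MYC at -0.31. Among metabolic genes CTH was at 0.96, ASNS at 0.76, SLC7A11 at 0.7, AKR1C3 at 0.66, MT2A at 0.4, DDIT3 at 0.38, NQO1 at 0.3, GCLC at 0.26, FASN at -0.78 and SCD at -0.68. KRT18 was at -0.38, HIST1H2AC at -1.01, NEAT1 at 0.47, UCA1 at -0.93, KYNU at 0.66, LOC643401 at 0.53, LOC100505817 at -1.54, CD248 at 0.88 and CDRT4 at 1.7. LOC100652895 had the largest value among named genes, -3.1. Its KO-labelled libraries were at 1.48 and 1.98e-06 FPKM with control siRNA and at 6.5 and 3.06 with SET siRNA, so its replicates were far apart.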

How the results depend on the processing

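The number of genes called with control siRNA stayed within 1.5 times of 3810 higher and 3291 lower except with a 2-fold minimum (94 and 279) and without the second KO-labelled library. Over the 5 libraries left out in turn it ranged from 2479 to 3914 higher and 2306 to 3619 lower. With SET siRNA the 2-fold minimum left 137 higher and 390 lower, and for the difference between the siRNAs 64 positive and 28 negative. That difference ranged from 619 to 2435 positive and 517 to 2152 negative over single libraries left out, and the cause was not tested. With the 2-fold minimum 45 p53 targets stayed lower and 0 G2/M genes higher. Otherwise 94 to 103 targets were lower and 27 to 34 G2/M genes higher.

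Of 510 list counts under alternatives, 458 lay within 1.5 times and 30 of the other 52 came from the 2-fold minimum. With library weights the counts called higher went from 16 to 9 for p53 regulators and from 12 to 4 for HOX genes, and those called lower from 10 to 4 for hypoxia and from 5 to 3 for bone genes. Fitting only the libraries compared left 6 respiratory and 11 G1/S genes higher and 5 hypoxia genes lower, and no filter left 6 hypoxia genes lower. With a mean FPKM of at least 5, which tests fewer genes, 14 interferon and 3 bone genes were lower and 6 HOX and 4 Wnt and Notch genes higher. Of the 142 named genes, 4 with differences near 0 changed sign. COL1A1 was at 0.003 with quantile normalization, and with single libraries left out at -0.169 to 0.127. On the same basis CDC20 ranged from -0.134 to 0.028, PLK1 from -0.086 to 0.128 and MCM2 from -0.067 to 0.155. None of these 4 was called with control siRNA in all 10 libraries.

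With control siRNA the deviations of same-numbered WT-labelled and KO-labelled libraries correlated at 0.23 and 0.253. These are 2 pairs only, and over all groups same-numbered libraries correlated at -0.091 to 0.253, so the numbers were not taken to pair the samples. With the replicate block 3832 genes were higher and 3357 lower, 102 p53 targets lower and 33 G2/M genes higher, and ribosomal protein genes called higher went from 7 to 13. The lone library of a group, when its partner was left out, was assumed to vary like the other groups. The precision of low genes is limited by depth, which is only estimated.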
